A study of Mus musculus with 89 samples.

Results

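The transcripts of 6 genes of the naive pluripotency network were followed across RNA-seq of mouse embryonic stem cells (ESCs) that lacked the orphan nuclear receptors Esrrb, Nr5a2 or both. The members, Tfcp2l1, Tbx3, Zfp42, Prdm14, Gbx2 and Tcl1, were taken by their symbol from the gene tables, and all 6 were found among 54146 genes. Of these 6 genes, 5 encode DNA-binding factors, whereas Tcl1 encodes a co-activator of the kinase Akt and binds no DNA itself. ESCs were kept in 2 media, FCS/LIF (fetal calf serum with the cytokine LIF) and 2i/LIF (inhibitors of Mek and of glycogen synthase kinase, with LIF). All cells were EKOiE ESCs, in which endogenous Esrrb is disrupted and a doxycycline (Dox) dependent Esrrb transgene takes its place, so that the control libraries carry this deletion and transgene too. The control state, +E+N, was EKOiE with Dox at 1 µg/ml, and −E was EKOiE after 2 days without Dox. The EKOiE NrKO line, in which an exon of the Nr5a2 DNA-binding domain is disrupted on both alleles, gave −N with Dox and −E−N after 2 days without it. The labels do not name the NrKO clone, and the study's supplement names clone 4 where it describes RNA-seq of this line. Effects of the line cannot be told apart from those of losing Nr5a2, nor medium from culture batch. Each state had 2 libraries in FCS/LIF and 3 in 2i/LIF, 20 in all.

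Naive pluripotency is the state of the preimplantation epiblast, and in culture it rests on a small set of transcription factors that hold each other's expression up and differentiation down. LIF acts through Stat3, of which Tfcp2l1 and Gbx2 are known targets, and Tbx3 is held up mainly by other signals downstream of LIF. Prdm14 represses Fgf signalling and de novo DNA methylation, and Zfp42, which encodes the zinc finger protein Rex1, is a widely used marker of naive cells. Esrrb and Nr5a2 bind as monomers to a nuclear receptor half-site with an extension at its 5′ end.

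In mm10 (GRCm38), 3 of the 6 genes lie on chromosome 1. In the GENCODE annotation, Tfcp2l1 (ENSMUSG00000026380) lies on the plus strand at chr1:118627945-118685168, Prdm14 (ENSMUSG00000042414) on the minus strand at chr1:13113457-13127163 and Gbx2 (ENSMUSG00000034486) on the minus strand at chr1:89927956-89931179. Tbx3 (ENSMUSG00000018604) lies on the plus strand at chr5:119670669-119684724, Zfp42 (ENSMUSG00000051176) on the minus strand at chr8:43295063-43306980 and Tcl1 (ENSMUSG00000041359) on the minus strand at chr12:105216750-105222793. All are annotated as protein coding, and the values below are sums over whole genes. The RefSeq promoter table (GRCm38.p6) matched 4 of the 6 genes, Tfcp2l1, Zfp42, Gbx2 and Tcl1, and had no entry for Tbx3 and Prdm14. The 250 bases before each start were searched on both strands for 4 words, TCAAGGTCA and TCAAGGCCA (spellings of the extended half-site), AAGGTCA (the half-site alone, contained in the first word) and ATGCAAAT (the octamer that Oct4 binds). Over all 32851 promoter windows of this length, 0.387% held TCAAGGTCA, 0.511% TCAAGGCCA, 4.08% AAGGTCA and 1.6% ATGCAAAT. Of the 4 promoters, that of Zfp42 held TCAAGGCCA once, 218 to 210 bases before the start, and the octamer once on the other strand, 186 to 179 bases before it. None of the 4 words lies in the windows of Tfcp2l1, Gbx2 and Tcl1. Such a match describes letters and does not show a binding site. Printed 5′ to 3′ on the strand of each gene, with both matches in capitals, are the promoters of Zfp42 and Tcl1, the nearest pair in profile over the 8 groups among these 4 genes, and of Gbx2, whose profile was farthest from the others. The intervals are chr8:43307010-43307259 for Zfp42, chr12:105222794-105222987 for Tcl1 and chr1:89931180-89931426 for Gbx2, all ending before the annotated transcript of the gene. The interval of Gbx2 overlaps an exon of the non-coding gene D130058E05Rik.
Zfp42: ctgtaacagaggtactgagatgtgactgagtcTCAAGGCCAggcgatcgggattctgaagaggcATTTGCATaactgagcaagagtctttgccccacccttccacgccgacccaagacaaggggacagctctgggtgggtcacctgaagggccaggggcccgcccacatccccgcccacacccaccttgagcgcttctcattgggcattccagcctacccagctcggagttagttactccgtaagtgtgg
Tcl1: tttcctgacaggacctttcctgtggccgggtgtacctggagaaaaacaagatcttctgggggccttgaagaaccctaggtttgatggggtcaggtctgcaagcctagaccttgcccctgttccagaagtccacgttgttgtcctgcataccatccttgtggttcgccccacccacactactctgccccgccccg
Gbx2: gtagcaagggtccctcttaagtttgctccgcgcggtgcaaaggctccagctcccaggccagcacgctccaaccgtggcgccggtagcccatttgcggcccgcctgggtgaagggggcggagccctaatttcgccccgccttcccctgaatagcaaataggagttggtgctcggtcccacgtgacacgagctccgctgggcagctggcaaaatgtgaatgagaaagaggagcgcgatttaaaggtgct

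The FCS/LIF libraries held 36514172 to 45443379 counts each, and the 2i/LIF libraries held 26653035 to 32526534. Esrrb counts hold both transgene reads and any left from the disrupted alleles, and Nr5a2 counts include transcript of its disrupted alleles, so neither row is a full check of its label. Esrrb fell in −E in FCS/LIF (log2 fold change -2.18), whereas in 2i/LIF its log2 fold change was -0.46 (adjusted p = 0.116). Nr5a2 had log2 fold changes of -0.55 (adjusted p = 0.0212) and -0.05 (adjusted p = 0.924) in −N of the 2 media. The 5 ESC markers fixed for the check (Pou5f1, Sox2, Nanog, Sall4 and Utf1) were above 0 in every group, with a summed level of 1956 to 2303 TPM (the share of transcripts after scaling by length) over the other groups in FCS/LIF, and of 1407 to 1613 in −E−N. In 2i/LIF their sum was 1776 to 2244 TPM over the other groups and 1109 to 1489 in −E−N. The 4 trophectoderm markers had the other order. Their sum was 14.5 to 16.3 TPM in +E+N and 45.7 to 66.1 in −E−N in FCS/LIF, and in 2i/LIF it was 0.7 to 1.84 and 24.1 to 32.5, with none listed at 0 in any group. Mesoderm and primitive streak markers were at 1.16 to 1.58 TPM in +E+N and 3.27 to 3.42 in −E−N of FCS/LIF. In 2i/LIF they were at 2.92 to 4.96 and 1.35 to 1.66. Neural markers fell in FCS/LIF (5.6 to 5.99 and 4.07 to 4.68) and overlapped in 2i/LIF. Primitive endoderm markers overlapped between these states in both media, and fibroblast markers rose in FCS/LIF and overlapped in 2i/LIF. The part of these cell type markers in the results below was not tested, and in bulk RNA fewer cells of a type cannot be told apart from less RNA per cell. The third library of −E−N in 2i/LIF had the lowest Esrrb (31.1 TPM, against 49.9 and 48.5) and Nr5a2 (6.22 TPM, against 14.3 and 11.2) of its group.

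A gene was called between states or media at an adjusted p under 0.01 (edgeR's quasi-likelihood test, Benjamini-Hochberg over all genes tested) and a fold over 1.5. In FCS/LIF, 4 of the 6 genes were lower after the loss of Esrrb, against +E+N, where 5.76% of all genes tested were called. In −N none was called (0.173% of all genes; 27 genes were called and 2550 had an unadjusted p under 0.05), although all 6 log2 fold changes were below 0, from -0.78 to -0.16, and 5 members had an unadjusted p under 0.05. With DESeq2, 1 of the 6 was called there, Tbx3. It was also called with the replicate number as a block, where 305 of all genes were called. In −E−N 5 were called, all lower, against 18.8% of all genes, and Gbx2 was not. Their median log2 fold change was -1.80 for the loss of Esrrb, -0.40 for that of Nr5a2 and -2.37 for the double loss, beside medians over all genes between -0.01 and 0.

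In 2i/LIF fewer members were called for each single loss than for the double loss, and the calls went in both directions. In −E 2 were called (1.55% of all genes), Tcl1 lower and Gbx2 higher, and in −N 3 were called (3.65%), Tbx3 and Prdm14 lower and Gbx2 higher. With the replicate number as a block, −E had 3 members called (Tfcp2l1 gained) among 596 genes, against 223 without it, and −N had 2 (Tbx3 lost) among 1115, against 524. In −E−N all 6 were called (18.6%), with Gbx2 higher and the other 5 lower. Medians over the members were -0.29 for the loss of Esrrb, -0.25 for that of Nr5a2 and -1.25 for the double loss. Thus in the double loss the same 5 genes, all but Gbx2, were called lower in both media. Gbx2 was called higher in 2i/LIF, and in FCS/LIF its log2 fold change was -0.29 (SE 0.088, adjusted p = 0.0243), below 0 but not called.

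**Figure D1:**
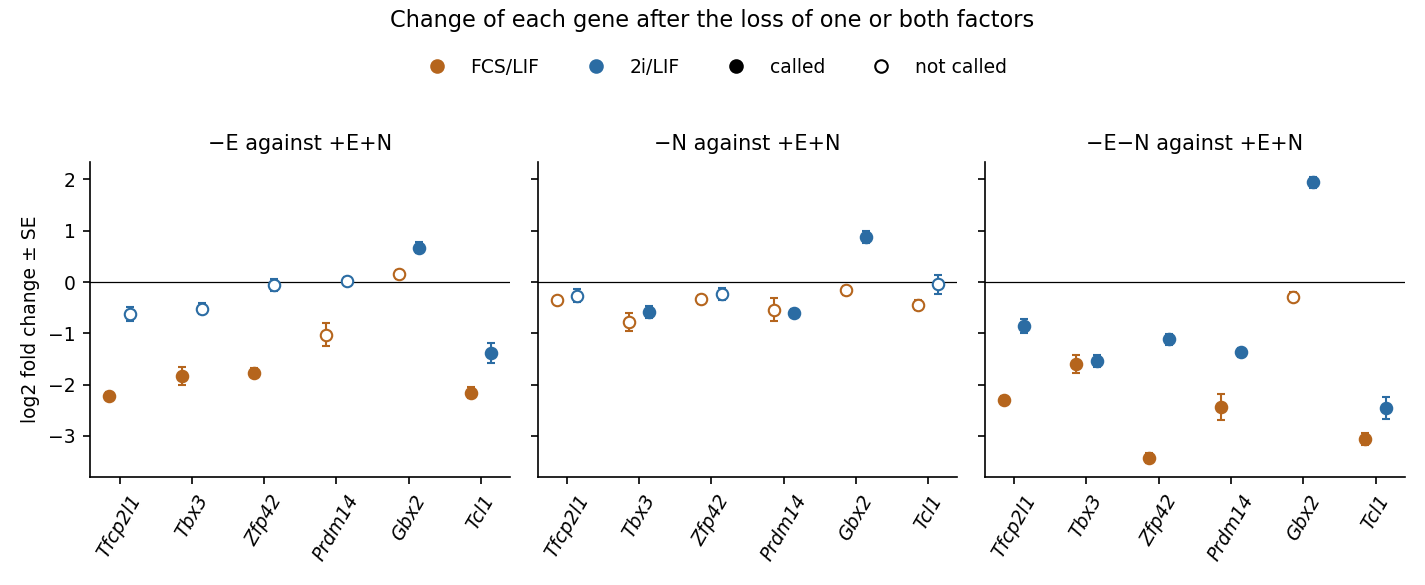
Log2 fold change (± SE) of the 6 genes against +E+N in −E, −N and −E−N, in FCS/LIF (brown, 2 libraries per state) and 2i/LIF (blue, 3 libraries per state), where filled points were called at an adjusted p under 0.01 and a fold over 1.5. Gbx2 is the only gene with called points above 0, at 0.67, 0.88 and 1.95 in 2i/LIF, and the points of −N in FCS/LIF are all open.

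The order of levels in control cells was compared in TPM, the per-length scale. In FCS/LIF, Zfp42 was the highest of the 6 genes at 388 and 372 TPM, and Tcl1 came next at 42.7 and 39.8. Tfcp2l1 (17.4 and 19.8 TPM) lay just above Gbx2 (15.8 and 17.4), the libraries of Tbx3 (13.6 and 18.9) overlapped both, and Prdm14 was lowest at 2.95 and 2.57. In 2i/LIF, Zfp42 was again highest (329 to 382 TPM), followed by Tfcp2l1 and Tcl1, whose libraries overlapped between 92.0 and 92.4, then Tbx3, Gbx2 and Prdm14. After the double loss in 2i/LIF the order differed, and Gbx2 (126 to 148 TPM) reached the range of Zfp42 (146 to 195), above the other 4 genes.

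**Figure D2:**
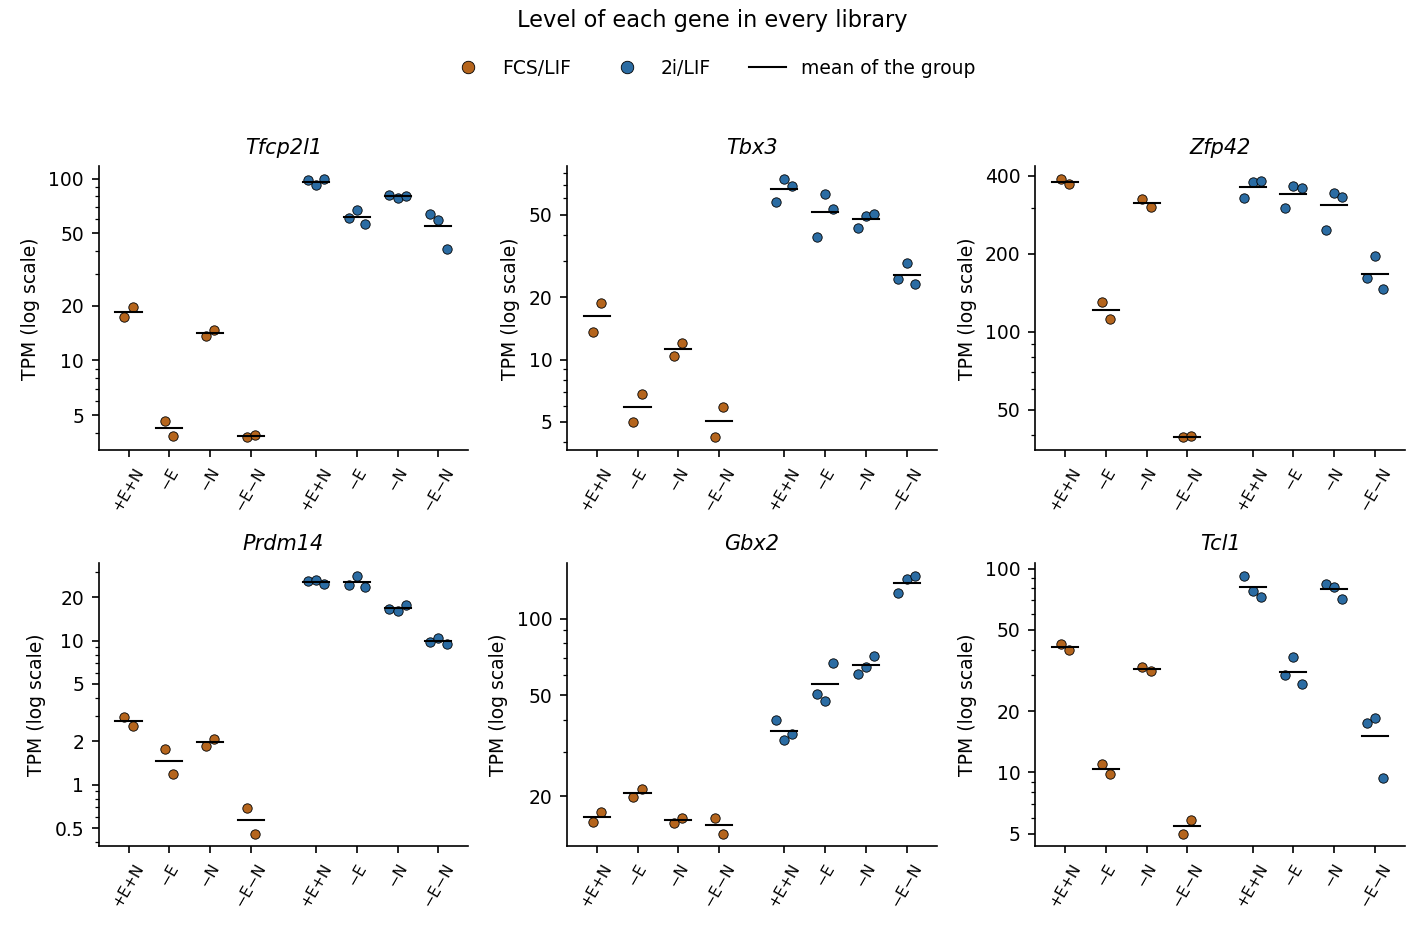
TPM (log scale) of the 6 genes in each of the 20 libraries, by state and medium, with points for libraries and a line for the mean of each group. Zfp42 is at a like level in the controls of both media and the other 5 genes are higher in 2i/LIF, and only for Gbx2 do the 2i/LIF points climb from +E+N to −E−N.

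Tfcp2l1, a CP2-family factor downstream of Stat3, was lower in both FCS/LIF groups without Esrrb, which overlapped each other. In FCS/LIF its level was 17.4 and 19.8 TPM for +E+N, 4.66 and 3.86 for −E, 13.7 and 14.8 for −N and 3.78 and 3.88 for −E−N. Both groups without Esrrb lay below both groups with it, and −E and −E−N overlapped. It was 4.66-fold lower in −E (log2 fold change -2.22, SE 0.072, adjusted p = 9.83e-07) and 4.94-fold lower in −E−N (-2.30, SE 0.0725, adjusted p = 2.43e-07). Between −E−N and −E the log2 difference was -0.08 (SE 0.073, adjusted p = 0.441). In 2i/LIF it was 98.2, 92.0 and 99.4 TPM for +E+N, 60.9, 67.3 and 56.3 for −E, 81.8, 78.5 and 80.9 for −N and 63.8, 59.5 and 41.2 for −E−N. Here all 3 groups with a loss lay below the controls without overlap, but only the double loss passed (log2 fold change -0.85, SE 0.134, adjusted p = 2.92e-04). The change in −E, -0.62 (SE 0.134, adjusted p = 0.0178), was called with the replicate number as a block (-0.63, adjusted p = 8.43e-04) and without the third −E−N library (-0.62, adjusted p = 0.0011). DESeq2, every gene of at least 1 count, all 20 libraries in one fit and a limit of 0.05 on the adjusted p gave this call too. DESeq2's size factors in edgeR and both limma fits on TPM did not. The fall from −N to −E−N in 2i/LIF (-0.59, adjusted p = 0.00898) lies near both limits of the call and was lost in 9 of the 12 fits that left out 1 library (all but those without the first −E, the third −E or the first −E−N library), with -0.42 without the third −E−N library as the smallest change.

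Tbx3, a T-box factor, was the only member whose mean level in FCS/LIF was no lower in the double loss than in −E by the counts. It was at 13.6 and 18.9 TPM for +E+N, 5.02 and 6.85 for −E, 10.4 and 12.0 for −N and 4.22 and 5.88 for −E−N. Both groups without Esrrb lay below the other groups and overlapped each other. The falls in −E (3.58-fold, log2 -1.84, SE 0.179, adjusted p = 2.44e-04) and in −E−N (3.01-fold, -1.59, SE 0.178, adjusted p = 1.62e-04) passed. From −E to −E−N the difference was 0.25 on the log2 scale (SE 0.183, adjusted p = 0.371) and took the other sign on the TPM scale. In 2i/LIF Tbx3 was at 57.5, 74.3 and 68.8 TPM for +E+N, 39.0, 63.1 and 53.2 for −E, 43.2, 49.6 and 50.4 for −N and 24.4, 29.3 and 23.1 for −E−N. The −E libraries overlapped the controls, the −N libraries lay below them, and the −E−N libraries lay below all others. The change in −N was 1.50-fold (log2 -0.59, SE 0.114, adjusted p = 0.00651), just past the fold limit, and with the replicate block it lay just inside it (-0.58, adjusted p = 6.93e-05). It was also lost in 5 fits without 1 library, those without −N replicate 1 or 2, +E+N replicate 2 or 3, or −E replicate 3 (-0.60 to -0.50). In −E the log2 fold change was -0.52 (SE 0.114, adjusted p = 0.0194). The double loss left 34.3% of the control level (log2 -1.54, SE 0.117, adjusted p = 1.15e-06), close to the 33.2% in FCS/LIF.

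Zfp42 was called lower in 2i/LIF only for the loss of both factors, and in FCS/LIF for the loss of Esrrb and of both. In FCS/LIF it was at 388 and 372 TPM for +E+N, 130 and 112 for −E, 324 and 303 for −N and 39.2 and 39.6 for −E−N. No pair of these groups overlapped. It was 3.41-fold lower in −E (log2 -1.77, SE 0.087, adjusted p = 1.11e-05) and 10.8-fold lower in −E−N (-3.44, SE 0.094, adjusted p = 1.05e-07), the largest fall of any member. The step from −E to −E−N was also called (-1.67, SE 0.089, adjusted p = 4.91e-05). In 2i/LIF it was at 329, 377 and 382 TPM for +E+N, 300.2, 365 and 358 for −E, 248, 345 and 330.3 for −N and 161, 195 and 146 for −E−N. The single losses overlapped the controls, with log2 fold changes of -0.06 (SE 0.11, adjusted p = 0.822) in −E and -0.24 (SE 0.11, adjusted p = 0.205) in −N. The double loss lay below all other libraries, 2.17-fold lower than +E+N (-1.12, SE 0.111, adjusted p = 9.29e-06). Its promoter is the one printed above with both matches in capitals.

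Prdm14, a PR-domain factor, was the least expressed member in FCS/LIF, with 219 to 232 counts per control library and 34 to 47 in −E−N, so its values there have the widest errors of the 6 genes. In FCS/LIF it was at 2.95 and 2.57 TPM for +E+N, 1.76 and 1.19 for −E, 1.87 and 2.07 for −N and 0.69 and 0.46 for −E−N. The controls lay above and the double loss below all other libraries. The fall in −E−N passed (5.41-fold, log2 -2.44, SE 0.258, adjusted p = 1.20e-04), whereas −E had -1.03 (SE 0.231, adjusted p = 0.0154) and −N -0.55 (SE 0.225, adjusted p = 0.274). The fall in −E was called with DESeq2, every gene of at least 1 count, the replicate block, all 20 libraries in one fit and a limit of 0.05. It was not called with DESeq2's size factors in edgeR, with either limma fit on TPM or in any fit without 1 library. In 2i/LIF it was at 25.7, 26.3 and 24.7 TPM for +E+N, 24.4, 28.2 and 23.5 for −E, 16.6, 16.1 and 17.7 for −N and 9.77, 10.5 and 9.43 for −E−N. Here the −E libraries surrounded the controls, with a log2 fold change of 0.02 (SE 0.077, adjusted p = 0.899), while −N lay below both. Prdm14 was 1.52-fold lower in −N (-0.60, SE 0.078, adjusted p = 5.14e-04), a call lost without the first or second +E+N or the second −N library (-0.58 to -0.56), and 2.59-fold lower in −E−N (-1.37, SE 0.08, adjusted p = 1.53e-07). From −N to −E−N it fell by 0.77 on the log2 scale (SE 0.08, adjusted p = 6.42e-05).

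Gbx2, a homeodomain factor, rose in 2i/LIF with each loss and most with both, and was not called against the controls in FCS/LIF. In 2i/LIF it was at 39.8, 33.4 and 35.3 TPM for +E+N, 50.7, 47.7 and 67.1 for −E, 60.7, 64.5 and 71.4 for −N and 126, 143 and 148 for −E−N. The controls lay below all other libraries, −E and −N overlapped, and the double loss lay above all. It was 1.59-fold higher in −E (log2 0.67, SE 0.108, adjusted p = 0.00369), 1.84-fold higher in −N (0.88, SE 0.108, adjusted p = 3.43e-04) and 3.86-fold higher in −E−N (1.95, SE 0.11, adjusted p = 1.20e-07). The rises from −N to −E−N (1.07, SE 0.107, adjusted p = 5.22e-05) and from −E to −E−N (1.28, SE 0.107, adjusted p = 4.37e-06) passed too. In FCS/LIF it was at 15.8 and 17.4 TPM for +E+N, 19.9 and 21.4 for −E, 15.7 and 16.5 for −N and 16.5 and 14.3 for −E−N. Only the −E libraries stood apart there, above the others, with a log2 fold change of 0.15 (SE 0.087, adjusted p = 0.259). Between −E−N and −E the log2 difference was -0.44 (SE 0.088, adjusted p = 0.00944), under the fold limit of 1.5. The call in −E in 2i/LIF was lost without either of replicates 1 and 3 of −E, or replicates 2 and 3 of +E+N, with log2 fold changes of 0.52 to 0.77 over all fits without 1 library, and the calls in −N and −E−N were kept.

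Tcl1, the Akt co-activator, was called lower without Esrrb in both media, and its −N libraries in 2i/LIF overlapped the controls. In FCS/LIF it was at 42.7 and 39.8 TPM for +E+N, 10.95 and 9.8 for −E, 33.0 and 31.4 for −N and 5.01 and 5.87 for −E−N. No pair of these groups overlapped. It was 4.46-fold lower in −E (log2 -2.16, SE 0.108, adjusted p = 1.12e-05) and 8.38-fold lower in −E−N (-3.07, SE 0.116, adjusted p = 6.58e-07). In 2i/LIF it was at 92.4, 77.4 and 72.5 TPM for +E+N, 30.0, 36.7 and 27.1 for −E, 84.3, 81.6 and 71.1 for −N and 17.4, 18.6 and 9.43 for −E−N. It was 2.61-fold lower in −E (-1.39, SE 0.198, adjusted p = 0.00191), the only member called lower there in the main fit, and 5.5-fold lower in −E−N (-2.46, SE 0.209, adjusted p = 2.66e-06). In −N the log2 fold change was -0.05 (SE 0.192, adjusted p = 0.919). The call in −E was lost without the third −E library (-1.30), within -1.47 to -1.27 over all fits without 1 library. RSEM divides reads shared with near-identical copies by estimation, and the neighbouring Tcl1b genes were below the count filter in all groups.

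The double loss was then compared with each single loss. Against −N this stays within the NrKO line, with and without Dox, whereas against −E it compares the NrKO line with EKOiE, and line and loss of Nr5a2 cannot be told apart there. In FCS/LIF, 5 of the 6 genes were lower with both factors lost than in −N (10.1% of all genes called), Gbx2 being the exception at a log2 difference of -0.13 (adjusted p = 0.28). Without the second −E−N library 3 were called, Tbx3 (-1.01) and Prdm14 (-1.66) being lost, and Tbx3 was lost also without the first −E−N, the second −N or either −E library (-0.84 to -0.60). Set against −E, the double loss had 3 members called lower (5.05%), Zfp42 (-1.67), Prdm14 (-1.41, adjusted p = 0.00765) and Tcl1 (-0.91, adjusted p = 0.00167), of which 1 to 3 were called when a library was left out. Prdm14 was lost without any of the 4 libraries compared (-1.73 to -1.12) and Tcl1 without the first −E or either −E−N library (-0.99 to -0.87), whereas Zfp42 was called in each of these fits. In 2i/LIF all 6 were called between −E−N and −N (6.76%) and 5 between −E−N and −E (13.1%), with Tfcp2l1 at -0.23 (SE 0.133, adjusted p = 0.207) in the latter. In both of these, Gbx2 was higher and the other called members lower.

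An interaction, the double loss minus the sum of the single losses, was called at an adjusted p under 0.01 without a limit on size. In FCS/LIF 0.032% of all genes were called and 1 of the 6 members, Zfp42, with an interaction of -1.33 (SE 0.121, adjusted p = 0.00572), its double loss being -3.44 and its single losses adding up to -2.10. This call was lost in each fit without 1 library (-1.47 to -1.25) but the one without the second −N library (-1.40). In 2i/LIF 0.307% of all genes were called and 1 member, Prdm14, with an interaction of -0.80 (SE 0.111, adjusted p = 0.00638), its double loss being -1.37 and the sum of its single losses -0.58. It was lost in each such fit (-0.84 to -0.76) but the one without the third −E library (-0.87). The interactions of Zfp42 (-0.83, adjusted p = 0.0243) and Tcl1 (-1.03, adjusted p = 0.111) in 2i/LIF were below 0 as well and did not pass, but did so with the replicate block (-0.82, adjusted p = 0.00123, and -1.05, adjusted p = 0.00329), as did Zfp42 without the first −N library (-0.94), and that of Tbx3 in FCS/LIF was above 0 (1.03, SE 0.25, adjusted p = 0.281). The latter was 0.28 in both limma fits on TPM, and passed with DESeq2 and with the replicate block (1.01 in both). For Tfcp2l1 the double loss differed from the sum by 0.27 in FCS/LIF (adjusted p = 0.471) and by 0.03 in 2i/LIF (adjusted p = 0.967).

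**Figure D3:**
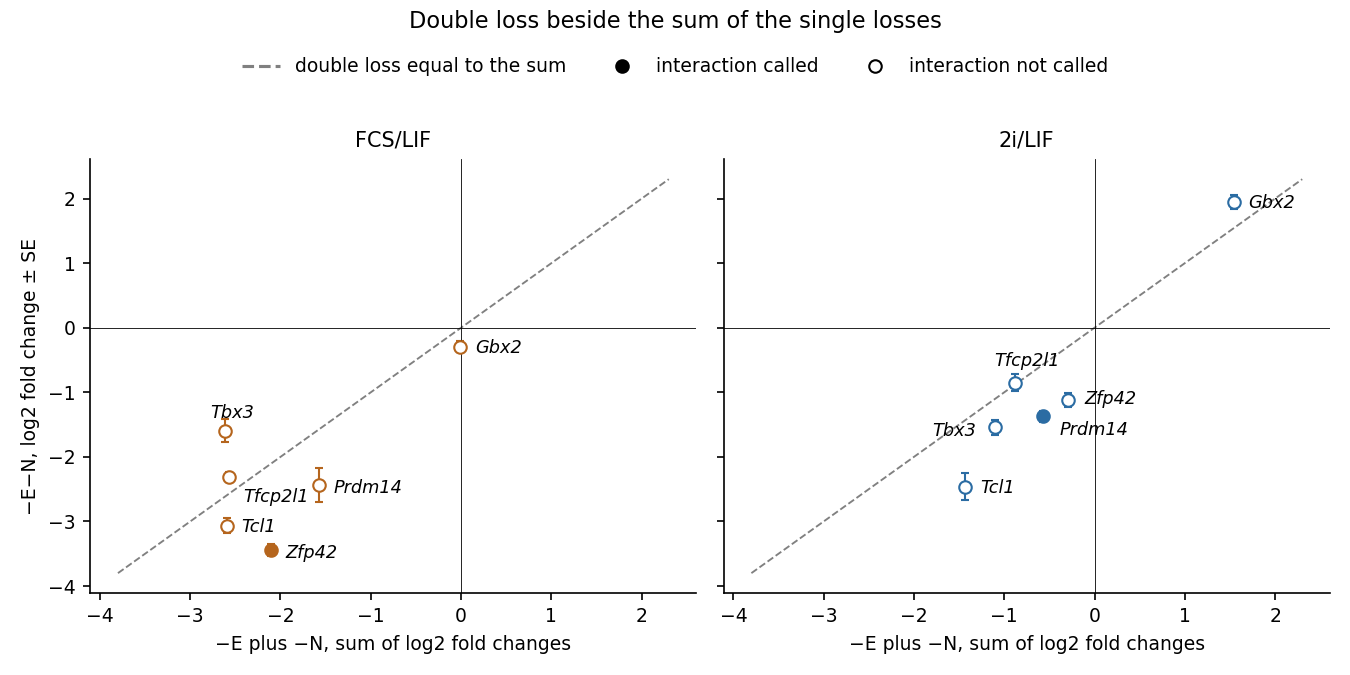
Log2 fold change (± SE) of −E−N against +E+N, plotted over the sum of the log2 fold changes of −E and −N, for the 6 genes in each medium, with a dashed line where both are equal and filled points where the interaction was called. Zfp42 in FCS/LIF and Prdm14 in 2i/LIF lie below the line as filled points, and Tbx3 lies above it in FCS/LIF (interaction 1.03, not called, and 0.28 on the TPM scale) and below it in 2i/LIF (-0.44, not called).

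In control cells 5 of the 6 genes were higher in 2i/LIF than in FCS/LIF (34.7% of all genes were called in this comparison), by 9.44-fold for Prdm14, 5.85-fold for Tfcp2l1, 3.87-fold for Tbx3, 2.18-fold for Gbx2 and 2.06-fold for Tcl1. Zfp42 had a log2 difference of -0.03 (SE 0.115, adjusted p = 0.841), and its control libraries of the 2 media overlapped. In −E−N all 6 were higher in 2i/LIF (35.0% of all genes), from 3.07-fold for Tcl1 to 19.2-fold for Prdm14, with Zfp42 at 4.77-fold. For Gbx2 the difference between media was 10.0-fold in −E−N, and for Tbx3 it was 3.91-fold, near its value in control cells. As medium and culture batch cannot be told apart, these are differences between the 2 sets of cultures.

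Next, each response was compared between the media, as the log2 fold change in FCS/LIF minus that in 2i/LIF. For −E, 4 of the 6 were called (1.06% of all genes), all with the lower value in FCS/LIF, Zfp42 by -1.69 (SE 0.164, adjusted p = 3.74e-05), Tfcp2l1 by -1.58 (SE 0.193, adjusted p = 3.68e-04), Tbx3 by -1.30 (SE 0.22, adjusted p = 0.00342) and Prdm14 by -1.03 (SE 0.197, adjusted p = 0.00764). Without the second +E+N or the second −E library of FCS/LIF 2 were called, Tbx3 and Prdm14 being lost. Tbx3 was lost also without the first −E library of FCS/LIF, and Prdm14 in 14 of the 20 fits without 1 library (-1.16 to -0.78), of both media. Tcl1 had a difference of -0.75 (SE 0.285, adjusted p = 0.173) and Gbx2 of -0.49 (SE 0.156, adjusted p = 0.0998). Esrrb counts themselves differed by -1.70 for −E (SE 0.244, adjusted p = 0.00108), and their part in the members' differences was not tested. For −N only Gbx2 was called (0.743% of all genes), with -1.02 (SE 0.157, adjusted p = 0.00192), and this call was lost without any of 3 FCS/LIF libraries, both −N libraries and the second +E+N library. For −E−N, 4 were called (13.2%), Zfp42 by -2.28, Gbx2 by -2.21, Tfcp2l1 by -1.42 and Prdm14 by -1.03 (adjusted p of 1.60e-07, 1.51e-07, 6.21e-05 and 0.00315). That of Prdm14 was lost without the first +E+N (-0.89) or the second −E−N (-0.80) library of FCS/LIF. For Tbx3 the difference was -0.02 (SE 0.217, adjusted p = 0.97), and for Tcl1 it was -0.57 (SE 0.3, adjusted p = 0.182), and -0.86 (adjusted p = 0.00469) without the third −E−N library of 2i/LIF.

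**Figure D4:**
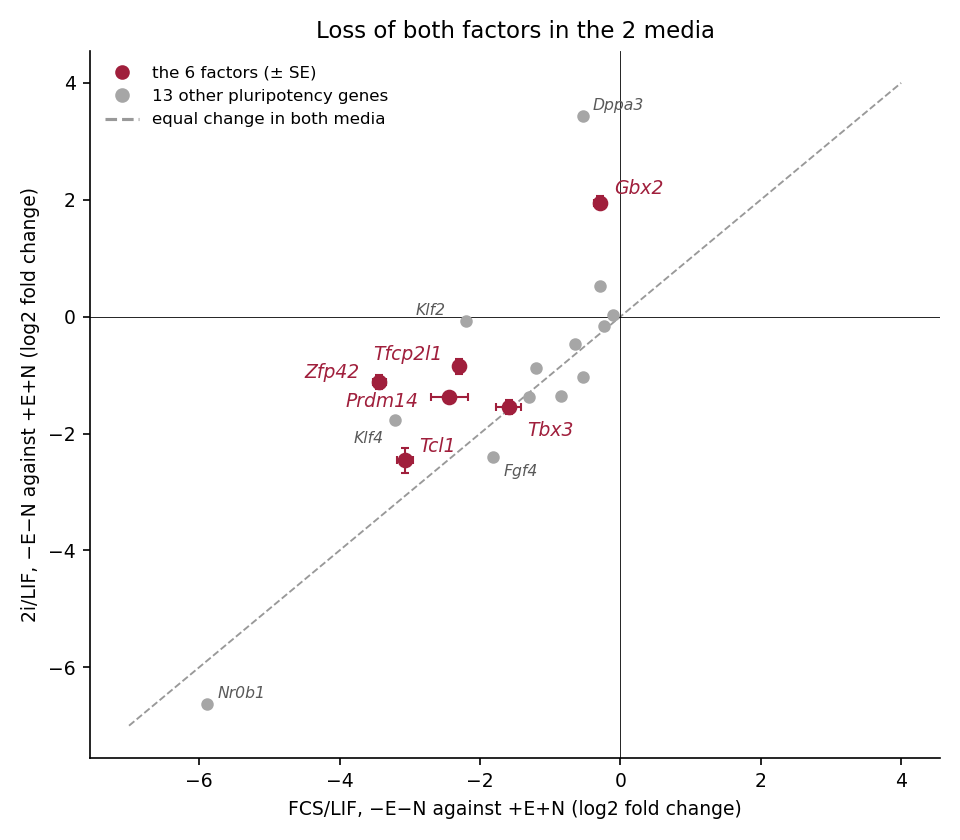
Log2 fold change of −E−N against +E+N in 2i/LIF over that in FCS/LIF, for the 6 genes (red, ± SE) and 13 other pluripotency genes (grey, some named), with a dashed line where both are equal. Zfp42, Tfcp2l1 and Prdm14 lie above the line with a larger fall in FCS/LIF, Tbx3 lies on it, and Gbx2 is above 0 in 2i/LIF and near 0 in FCS/LIF.

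Ranked over the 8 groups by mean CPM (counts scaled to 1e+06 per library with TMM, edgeR's trimmed mean normalization), neighbours were called separate where their means differed by more than the sum of their SDs. Tfcp2l1 spanned the widest range but for Prdm14, 28.5-fold from 763 CPM ± 39.2 (SD, n = 3) in +E+N of 2i/LIF to 26.7 ± 0.025 (SD, n = 2) in −E−N of FCS/LIF, and all of its 2i/LIF groups stood above all FCS/LIF groups. Neighbours that were not separate were −E and −E−N in 2i/LIF. In FCS/LIF the same 2 states were separate by this rule only through the small SDs of 2 libraries each (28.3 CPM ± 0.244 and 26.7 ± 0.025). Their tested log2 difference was -0.08 (adjusted p = 0.441), and their libraries overlapped in TPM. Prdm14 spanned 51.1-fold and also had all 2i/LIF groups above, with −E and +E+N of 2i/LIF as the pair not separate. Tbx3 spanned 13.7-fold in the same way, with −E and −N of 2i/LIF, and −E−N and −E of FCS/LIF, not separate. For Zfp42, which spanned 10.7-fold, none of the 5 highest groups was separate from the next among them. These groups were both controls, both −N groups and −E of 2i/LIF. The rule compares neighbours only, and +E+N and −N of FCS/LIF did not overlap in TPM (388 and 372, against 324 and 303). Below these 5 groups came −E−N of 2i/LIF, −E of FCS/LIF and −E−N of FCS/LIF, each separate. Tcl1 spanned 17.1-fold, and its 3 lowest groups were −E−N of 2i/LIF, −E of FCS/LIF and −E−N of FCS/LIF, the same and in the same order as for Zfp42. Gbx2 spanned 10.0-fold with its highest group in −E−N of 2i/LIF at 177 CPM ± 9.88 (SD, n = 3), where 4 of the other 5 genes had their lowest 2i/LIF level by more than the sum of the SDs, and Tfcp2l1 its lowest 2i/LIF mean.

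The likeness of 2 profiles was measured as the root mean square difference of their log2 group means over the 8 groups, each centred on the gene's own mean, with values over 20 libraries that share the medium and state. Among the members Tfcp2l1 and Prdm14 were nearest (0.50 log2 units), then Zfp42 and Tcl1 (0.59) and Tfcp2l1 and Tbx3 (0.62). Gbx2 was nearest to Tbx3, at 1.03, which ranked 3581 of the 11739 genes compared. For Zfp42, Itgb7 (0.32) and Trps1 (0.33) were the nearest of all genes, and Itgb7 had a log2 difference of -0.11 between media in control cells and fell in −E−N in both (-2.98 in FCS/LIF and -1.16 in 2i/LIF). For Gbx2 they were Fam19a4 (0.20) and Lhpp (0.23), both higher in −E−N of 2i/LIF (1.90 and 1.31). For Tcl1 they were Zfp607b (0.21) and Lrrc34 (0.30), both called lower in −E of both media. Oas1a (0.35) and H2-M6-ps (0.36) were nearest to Tfcp2l1, Dlgap3 (0.25) and Mras (0.26) to Tbx3, and Accsl (0.31) and Myh13 (0.36) to Prdm14. These are descriptions of 8 group means that share medium and state.

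**Figure D5:**
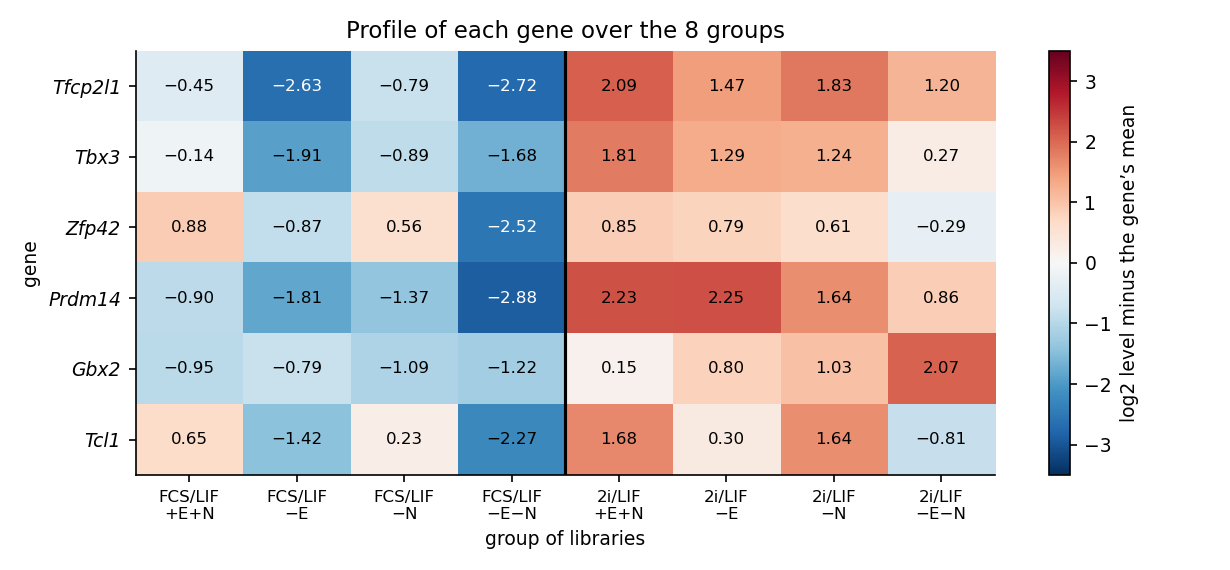
Log2 level (CPM + 0.5) of each gene in the 8 groups minus the mean of the gene over the groups, with red above and blue below the mean and the value in each cell. Tfcp2l1, Tbx3 and Prdm14 are above their mean in all 2i/LIF groups, Zfp42 and Tcl1 are above it in all but −E−N there, and Gbx2 reaches its highest value, 2.07, in −E−N of 2i/LIF.

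The 6 genes were set beside 13 other genes of the pluripotency network, among them the core factors Pou5f1 and Sox2. In FCS/LIF 5 of the 13 were called in −E, all lower (5.76% of all genes called, median log2 fold change -0.44, beside -1.80 for the 6 members and -0.0025 over all genes), led by Klf4 (-2.19, adjusted p = 2.80e-06), a Kruppel-like factor downstream of Stat3, and Nr0b1 (-2.66, adjusted p = 1.15e-05), a repressor known to bind both receptors. In −N none of the 13 was called by edgeR (8 had an unadjusted p under 0.05, median -0.19), and in −E−N 8 were lower and none higher (18.8% of all genes called, median -0.84, beside -2.37 for the members and 0 over all genes). In 2i/LIF the counts were 1 lower in −E (Nr0b1, -2.04, 1.55% of all genes called), 1 higher in −N (3.65%) and, in −E−N, 6 lower and 1 higher (18.6%, median -0.88, beside -1.25 for the members and 0.01 over all genes). The gene called higher in both −N and −E−N was Dppa3 (2.08 and 3.43), a germline and naive marker, which shared with Gbx2 a rise in 2i/LIF with no call in −E−N of FCS/LIF. Nanog fell in −E−N in both media (-1.30 and -1.37), whereas Klf2 fell in FCS/LIF (-2.20, adjusted p = 5.32e-07) and had -0.08 in 2i/LIF (adjusted p = 0.619).

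A list of 10 formative and primed genes, which mark the exit from the naive state, was read the same way. Of the 10, 9 were lower in 2i/LIF than in FCS/LIF in control cells (34.7% of all genes called, median log2 difference -2.93, beside 1.54 for the 6 members and 0.0092 over all genes), with Pou3f1 at -5.91 and Dnmt3b at -2.56. In FCS/LIF 4 were higher and 1 lower in −E (5.76% of all genes called), among them Fgf5 (2.09, adjusted p = 3.71e-05) and Pou3f1 (1.29, adjusted p = 6.49e-05) higher and Tcf15 (-0.93), named after its values were seen, lower. In −E−N of FCS/LIF 3 were higher and 3 lower (18.8%), Otx2 being lower at -1.73. In 2i/LIF, of 9 tested, 2 were higher after each single loss (1.55% and 3.65%) and 3 in −E−N (18.6%), with Lef1, a nuclear effector of Wnt signalling, called higher in all 3 (2.02, 3.16 and 5.03) and Otx2 lower in −E−N (-5.33, adjusted p = 4.47e-05). Otx2 was near the floor in this medium, with 39 to 58 counts per control library and 0 to 2 in −E−N. Lef1 started low as well, with 16 to 30 counts per control library and 620 to 762 in −E−N. Medians of the 9 were 0.39 for the loss of Esrrb, 0.26 for that of Nr5a2 and 0.50 for the double loss, beside 0.014, -0.0032 and 0.01 over all genes.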

How the data were processed

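Poly(A) RNA of the 20 libraries was sequenced as stranded paired-end reads. The authors used STAR for alignment to mm10 and RSEM for quantification, and deposited RSEM's estimated counts of each gene, not normalized between libraries. A second table of the authors holds TPM from the same run. Versions of these tools are not given in the sources used here. Of the 54238 rows, 92 ERCC spike-in rows were at 0 and left out. The members and gene lists were chosen with earlier results of these data known.

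Counts were rounded and fitted with edgeR 4.0.16 (R 4.3.3; TMM, quasi-likelihood test, Benjamini-Hochberg), the 4 states of a medium together, keeping a gene where every replicate of 1 state or more had 20 counts (15636 genes for FCS/LIF, 14355 for 2i/LIF, with the 6 members among both). Media were compared in a fit of the 20 libraries as 8 groups (16147 genes). A call needed an adjusted p under 0.01 and, except for interactions and differences between media in a response, a fold over 1.5. These are the limits of the study's methods, which used DESeq2. The labels do not say whether libraries of a state are separate cultures, but the study's figure legends describe its RNA-seq replicates as independent experiments. Replicates differed by more than sampling noise (chi-square per degree of freedom 4.28 to 28.3).

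Libraries of 2i/LIF with the same replicate number deviated together from their group means. Correlations over genes were 0.106 to 0.572 for every pair of states except −E−N with +E+N. There replicate 2 had -0.0126, whereas replicates 1 and 3 had 0.375 and 0.357. The number was therefore read as a pairing for the other comparisons within 2i/LIF. In −E−N against +E+N the block left the calls of the members as they were. The main fits held no block, so calls in 2i/LIF are unpaired wherever the replicate block is not named. Within 2i/LIF the block changed the calls of Tfcp2l1 in −E, of Tbx3 in −N and of the interactions of Zfp42 and Tcl1. In FCS/LIF there are only 2 pairs for each comparison. Their correlations were 0.109 to 0.36, except +E+N with −E at 0.0361, and calls there are unpaired too wherever the block is not named.

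Alternatives were DESeq2 1.42.0, its size factors in edgeR, every gene with at least 1 count, the replicate block, limma 3.58.1 on log2(TPM + 1) and on log2(TPM + 0.1), all 20 libraries in one fit, an adjusted p under 0.05, and leaving out each library. The steps were tested on simulated data. The named genes are the 6 members, the targeted genes, the genes of 3 lists (up to 4 per comparison by adjusted p) and the 2 genes with the profile nearest to each member, among genes with a mean of 100 counts or more. ChIP-seq was not analysed here.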

Additional observations from a re-analysis of the deposited data

Results flagged for a closer look

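The response to a loss differed between the 2 media by a test of the difference itself for several members (log2 fold change in FCS/LIF minus that in 2i/LIF, adjusted p under 0.01 in edgeR's quasi-likelihood test). For the loss of Esrrb the differences were -1.58 for Tfcp2l1, -1.30 for Tbx3, -1.69 for Zfp42 and -1.03 for Prdm14, all with the lower value in FCS/LIF. Prdm14 lost this call in 14 of 20 fits without 1 library and Tbx3 in 3, and both lost it in both limma fits on TPM. For the loss of both factors the differences were -1.42 for Tfcp2l1, -2.28 for Zfp42, -1.03 for Prdm14 and -2.21 for Gbx2. That of Prdm14 was lost in 2 of 20 fits without 1 library and in both limma fits, with 0.029 on log2(TPM + 1). For the loss of Nr5a2 the difference was -1.02 for Gbx2, which was called higher in 2i/LIF (0.88) and had -0.16 in FCS/LIF. It was lost in 3 of 20 fits without 1 library and in both limma fits. Esrrb counts differed between media too, by -1.70 in −E and -1.39 in −E−N (adjusted p of 0.00108 and 6.36e-04 in the same test). Their part in the members' differences was not tested. Medium and culture batch cannot be told apart in these values.

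The effect of losing one factor differed with the presence of the other, by the interaction term, for Zfp42 in FCS/LIF (-1.33) and for Prdm14 in 2i/LIF (-0.80). These calls were lost in 7 of 8 and 11 of 12 fits without 1 library and with limma on log2(TPM + 1). That of Zfp42 was lost also with all 20 libraries in one fit, and that of Prdm14 with limma on log2(TPM + 0.1). With the replicate block Zfp42 and Tcl1 in 2i/LIF and Tbx3 in FCS/LIF passed too.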

How the results depend on the processing

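Of the 102 values of the 6 genes, each alternative fit left 90 to 101 on the same side of the call, and all 20 libraries in one fit, which gave 72 values, left 66. The sign of a called value turned in 1 case, the difference between media of −E−N for Prdm14, which was 0.029 with limma on log2(TPM + 1) values against -1.03 in the counts; Prdm14 is at 0.46 to 2.95 TPM in FCS/LIF, where a pseudocount of 1 compresses changes. Over fits without 1 library, 1242 of 1320 values kept their side, 75 lost the call and 3 gained it. The number of members called kept within 1.5 times under all alternatives for −E and −E−N against +E+N in FCS/LIF (4 to 5 and 5), for −E−N against each other state in 2i/LIF (6, 5 to 6 and 5) and for 2i/LIF against FCS/LIF in +E+N and −E−N (5 and 6), and for the difference between media of −E−N (3 to 5).

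Numbers of members called that moved by more than this were as follows. In −N of FCS/LIF (0 called) 1 was called with DESeq2, with every gene of at least 1 count and with the replicate block. For the interaction in FCS/LIF (1 called) the same 3 gave 2, limma on log2(TPM + 1) and all 20 libraries in one fit gave 0, and fits without 1 library 0 to 1. For the interaction in 2i/LIF (1 called) an adjusted p under 0.05, DESeq2 and all 20 libraries in one fit gave 2, every gene of at least 1 count and the replicate block gave 3, both limma fits 0, and fits without 1 library 0 to 1. In 2i/LIF both limma fits gave 1 in −E (2 called; 0 to 3 without 1 library), and limma on log2(TPM + 1) gave 1 in −N (3 called; 1 to 3 without 1 library). In FCS/LIF −E−N against −N had 3 to 5 and −E−N against −E 1 to 3 without 1 library. For the difference between media both limma fits gave 2 in −E (4 called; 2 to 4 without 1 library) and 0 in −N (1 called; 0 to 1). The cause of these changes was not tested.

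In the fit with the replicate block, 7 of the 102 calls changed. Beside Tfcp2l1 in −E and Tbx3 in −N of 2i/LIF and the interactions of Zfp42 (-0.82) and Tcl1 (-1.05) there, given above, 3 changes were in FCS/LIF. There +E+N and −N libraries of the same number correlated at 0.36 over genes, and +E+N and −E libraries at 0.0361. Tbx3 was called in −N (-0.78, adjusted p = 3.48e-04) and for the interaction (1.01, adjusted p = 0.00414), and Prdm14 in −E (-1.04, adjusted p = 0.00252). Over all genes the block moved the calls in −N of FCS/LIF from 27 to 305 and in −E of 2i/LIF from 223 to 596. It changed no other call of the 6 genes. The call of Tbx3 in −N of 2i/LIF, at a fold of 1.50, was lost in 7 of the 8 alternatives that kept all libraries, at log2 fold changes of -0.58 to -0.47. Depth limits mainly Prdm14 in FCS/LIF, with 34 to 232 counts per library.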

Other observations

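Of 19 relatives of the 6 genes by protein family (among them Tfcp2 and Ubp1 for Tfcp2l1, Tbx2 and Tbx20 for Tbx3, Yy1 and Yy2 for Zfp42, several Prdm genes, Gbx1, and Mtcp1 and the Tcl1b genes for Tcl1), 12 passed the count filter in each medium. In −E and in −N none of the 12 was called in either medium by edgeR's quasi-likelihood test, with 1 and 3 of them at an unadjusted p under 0.05 in FCS/LIF and 1 and 2 in 2i/LIF, where 5.76%, 0.173%, 1.55% and 3.65% of all genes were called. In −E−N of FCS/LIF 2 of the 12 were called, near the share of all genes (18.8%), Prdm1 lower (-0.78, adjusted p = 3.41e-04), a regulator of germ cell fate, and Tbx20 higher (0.69, adjusted p = 0.00351), a T-box factor of the heart, and in 2i/LIF none was (1 at an unadjusted p under 0.05), beside 18.6% of all genes. For −E−N the relatives had a median log2 fold change of -0.13 (FCS/LIF) and 0.06 (2i/LIF), beside -2.37 and -1.25 for the 6 genes and 0 and 0.01 over all genes. Between media in control cells, Tbx20 (-3.48) and Prdm1 (-1.33) were among the relatives called lower in 2i/LIF, and Tbx2 (1.62) was called higher.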
